A study of Rattus norvegicus with 12 samples.

Results

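Nuclear receptors are transcription factors switched by small lipid-soluble ligands. Most carry a zinc finger domain that binds DNA and a pocket that holds the ligand, and the receptors for fatty acids, oxysterols, bile acids, vitamins, thyroid hormone and foreign compounds act largely as pairs with a retinoid X receptor. Steroid receptors instead wait with chaperones for their hormone and bind DNA as pairs of their own kind. In hepatocytes the metabolic sensors of the family control fatty acid oxidation, lipogenesis, bile acid synthesis and drug clearance. The family is described here by a list of 42 genes, each read from transcript clusters (the probe groups of the array) that the platform annotation assigns to that gene symbol alone. Of these, 41 were measured among the 18166 genes tested, and Nr1d2 was not analysed here. Where a gene had several such clusters, as Ppard had 2, the brightest over all arrays was taken.

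Livers came from 12 male obese Zucker rats, all homozygous for the fa allele (fa/fa, Crl:ZUC-Leprfa), which leaves them without a working leptin receptor. The 6 PSC rats ate a diet with 5% PSC for 4 weeks, and the 6 control rats a diet of similar energy and crude nutrients with no supplement. PSC is the name the labels give to a product grown on an agricultural side stream as its carbon source, and the series title describes an oyster mushroom made by biotechnology and asks for its effects in the liver. All rats began the trial at an age of 5 to 6 weeks, were killed on day 29 and had 1 Affymetrix Rat Gene 2.0 ST array each. The fa allele was common to both diets, and no lean rats were analysed here. The profiled rats were drawn at random from 12 per diet that were caged in groups of 2, so that cage mates among them would not be fully independent.

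The values are log2 signals, in which a step of 1 is a 2-fold change, and differences are PSC minus control. The number of arrays limits the precision. Array medians lay between 4.71 and 4.85, with correlations of 0.987 to 0.995 between arrays. Markers of the labelled tissue were bright, with a mean log2 signal over 11 hepatocyte markers of 11.97 to 12.08 in PSC livers and 11.77 to 12.03 in control livers. A gene is said to have passed, risen or fallen where its adjusted p was below 0.05 (limma, Benjamini-Hochberg adjustment over all 18166 genes). Of all genes, 130 rose and 343 fell, and with each array centred on its median 82 rose and 584 fell.

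Rxra and Ppara rose in PSC livers and were the only members to pass. Rxra encodes retinoid X receptor alpha, the shared partner of the metabolic sensors, and Ppara the fatty acid sensor PPAR alpha, which switches on fat oxidation in liver. These 2 are 4.88% of the 41 members, where 2.6% of all genes tested passed. In the higher direction alone 0.716% of all genes passed, and in the lower direction 0 members and 1.89% of all genes did (limma). At an unadjusted p below 0.05 there were 8 members higher (19.5%) and 3 lower (7.32%), against 9.02% and 10.1% of all genes. In either direction these 11 were 26.8% of the members, where 19.1% of all genes had such a p. The family as a whole was centred near 0, with a median log2 difference of 0.027 over the members and 0.013 over all genes. Its median absolute difference was 0.077, where that of all genes was 0.090, and 6 members (14.6%) differed by over 0.3, where 5.69% of all genes did.

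Rxra had log2 signals of 9.78 at the lowest, 9.82 at the median and 9.86 at the highest in PSC livers, against 9.34, 9.47 and 9.69 in control livers. Every PSC liver lay above every control liver, and the PSC livers were packed within 0.08 while the control livers spread over 0.35. No other member was free of overlap, so that 2.44% of the members and 2.19% of all genes were, with 0.71% of all genes having PSC above every control. The means were 9.82 ± 0.03 in PSC livers and 9.50 ± 0.13 in control livers (SD, n = 6 each). The log2 difference was 0.32 (SE 0.06, 95% interval 0.19 to 0.45), a 1.25-fold rise with an adjusted p of 0.0186 (limma). The call was kept in 11 of 12 fits without 1 array and missed without control replicate 1, where the difference was 0.31 and the adjusted p rounded to 0.05.

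Ppara had log2 signals of 9.07, 9.35 and 9.51 at the lowest, median and highest in PSC livers, against 8.63, 8.95 and 9.09 in control livers. The groups overlapped by a single pair of rats, PSC replicate 1 at 9.07 and control replicate 2 at 9.09. The means were 9.33 ± 0.18 in PSC livers and 8.92 ± 0.16 in control livers (SD, n = 6 each). The log2 difference was 0.41 (SE 0.09, 95% interval 0.21 to 0.61), a 1.33-fold rise with an adjusted p of 0.0345 (limma). This call was less steady than that of Rxra and was kept in 4 of 12 fits without 1 array, although the difference stayed between 0.35 and 0.46. The limma adjusted p was 0.0731, 0.0653, 0.0611, 0.0597 and 0.0532 without control replicates 1, 3, 4, 5 and 6, and 0.0581, 0.0731 and 0.0758 without PSC replicates 2, 5 and 6. Without PSC replicates 2 and 5 together, an alternative added after seeing the data, the difference was 0.34 and the adjusted p was 0.13.

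**Figure D1:**
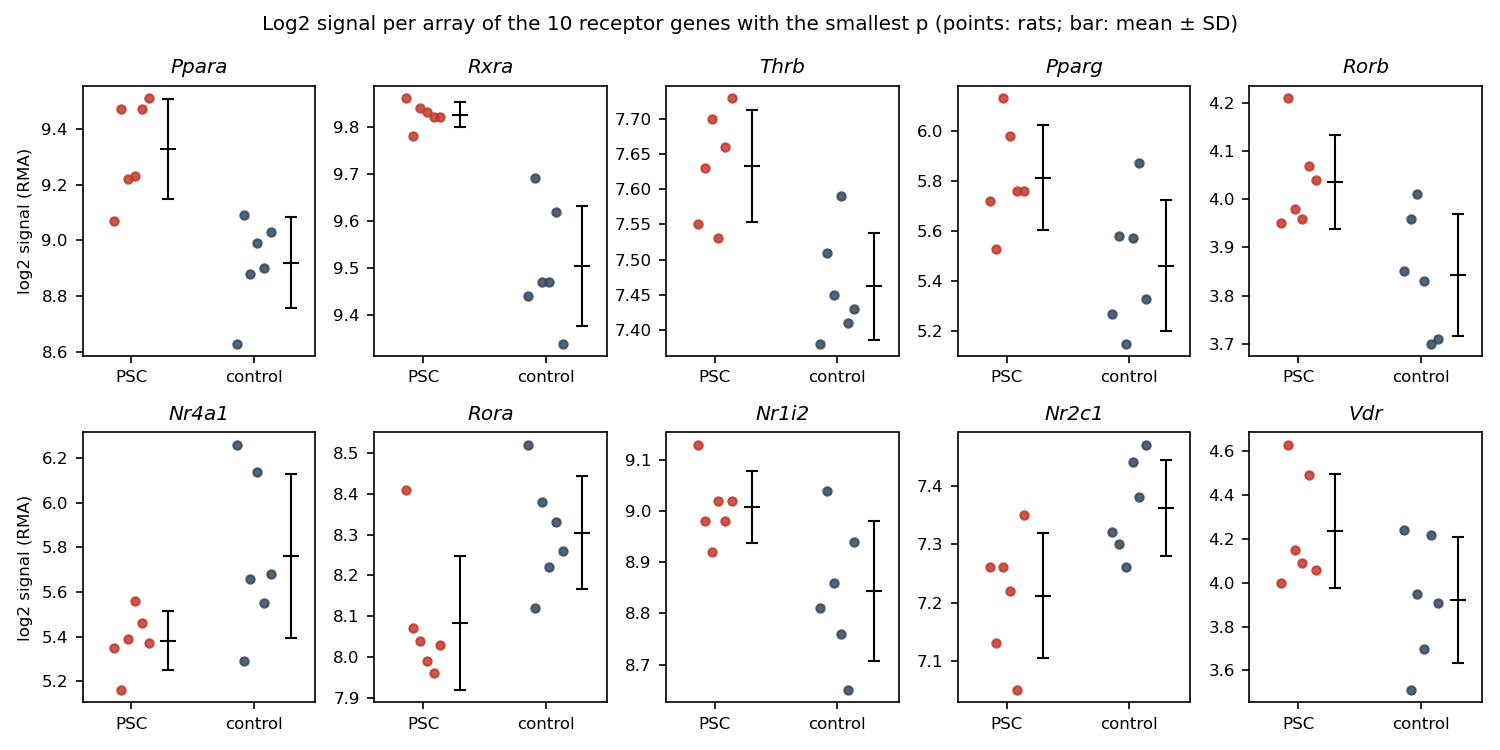
Log2 signal of each rat for Ppara, Rxra and the 8 further nuclear receptor genes with the smallest p, with PSC livers left and control livers right, bars at mean ± SD (n = 6 each) and a separate vertical scale for each panel. PSC livers lie above every control liver for Rxra, at 9.78 to 9.86 against 9.34 to 9.69, and the diets overlap in the other panels.

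The promoters of Rxra and Ppara are printed because these are the members that rose, and that of the coactivator gene Ppargc1a because it fell, as given below. Each is the 250 bases before the gene's start from RefSeq, on the plus strand of the rat assembly GRCr8. Rxra lies after chr3:31387642-31387891 and Ppara after chr7:118712357-118712606, with the GC box (GGGCGG, searched on both strands) in capitals. Ppargc1a lies after chr14:63634058-63634307, with the cAMP response element (TGACGTCA, a palindrome that the factor CREB binds) in capitals.
Rxra: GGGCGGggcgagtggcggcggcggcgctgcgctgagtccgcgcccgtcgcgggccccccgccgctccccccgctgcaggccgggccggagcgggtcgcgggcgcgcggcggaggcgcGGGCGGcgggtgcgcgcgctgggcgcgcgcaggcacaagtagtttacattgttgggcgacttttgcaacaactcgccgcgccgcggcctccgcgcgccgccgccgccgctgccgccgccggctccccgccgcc
Ppara: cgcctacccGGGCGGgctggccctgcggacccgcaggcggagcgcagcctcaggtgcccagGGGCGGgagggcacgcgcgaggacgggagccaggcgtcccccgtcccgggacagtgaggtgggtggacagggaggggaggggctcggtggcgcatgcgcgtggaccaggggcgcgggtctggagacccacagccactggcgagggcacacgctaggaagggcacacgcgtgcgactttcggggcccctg
Ppargc1a: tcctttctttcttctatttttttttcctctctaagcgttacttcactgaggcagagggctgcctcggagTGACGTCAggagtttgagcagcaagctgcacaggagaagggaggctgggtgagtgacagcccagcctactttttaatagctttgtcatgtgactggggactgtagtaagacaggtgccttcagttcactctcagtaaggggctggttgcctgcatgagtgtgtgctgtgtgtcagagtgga

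G and C made up 82.8% of the Rxra stretch, 76.0% of the Ppara stretch and 50.4% of the Ppargc1a stretch, where the median was 61.2% over the promoter entries of the family and 51.2% over all 33469 entries. Of the 41 measured members 35 had an entry, with 44 entries in all, and only entries of full length were counted. A GC box stood in 52.3% of the family's entries and in 30.5% of all, with 2 each in Rxra and Ppara. AGGTCA, the half-site that many of these receptors bind, stood in 6.82% of the family's entries and in 14.1% of all (both strands). The DR1 repeat bound by PPAR and retinoid X receptor pairs, in which 2 such half-sites follow each other in the same direction with 1 base between, stood in 0 of the family's entries and in 0.0508% of all. Neither the half-site nor the repeat was found in the 3 stretches printed. The cAMP response element stood in 1.59% of all entries and in 0 of the family's.

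Rxra differed in its change from the other retinoid X receptors. Rxrb and Rxrg, the beta and gamma forms, had log2 differences of -0.02 (95% interval -0.15 to 0.10) and 0.03 (-0.10 to 0.15). The change of Rxra exceeded that of Rxrb by 0.34 and that of Rxrg by 0.29, and the within-array differences of the 6 PSC livers did not overlap with those of the 6 control livers in either pair. Exact two-sided permutation over 924 assignments of the arrays gave p = 0.00216 for both, the smallest possible, and 0.0281 after adjustment over 26 pairs of related receptors. These 2 pairs alone of the 26 passed. The pairs were compared after the values of the single genes were seen.

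Among the other fatty acid sensors, Pparg, which drives fat storage in adipocytes, had log2 signals of 5.53, 5.76 and 6.13 at the lowest, median and highest in PSC livers, against 5.15, 5.45 and 5.87 in control livers. All 6 PSC livers lay above the control median and 2 above every control liver. The log2 difference was 0.35 (SE 0.12, 95% interval 0.09 to 0.61, limma adjusted p = 0.133). Ppard, the form active in most tissues, had -0.07 (-0.41 to 0.26), and its dimmer cluster had 0.02. The change of Ppara exceeded that of Pparg by 0.06 (exact permutation p = 0.747) and that of Ppard by 0.48 (p = 0.104, 0.27 after adjustment over the 26 pairs), so neither difference passed.

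The sterol and bile acid sensors did not pass, where 2.6% of all genes did. Nr1h3 and Nr1h2, which encode the oxysterol receptors LXR alpha and LXR beta, had log2 differences of 0.08 (95% interval -0.06 to 0.21) and -0.06 (-0.21 to 0.08). Nr1h4, the bile acid receptor FXR, had 0.15 (-0.05 to 0.35), with 3 PSC livers above every control liver. Nr0b2 encodes SHP, a repressor without a DNA-binding domain that FXR induces. Its log2 signals were 6.52, 7.02 and 8.42 at the lowest, median and highest in PSC livers, against 6.97, 7.72 and 8.47 in control livers. The rats of both diets were widely scattered, and the log2 difference of -0.43, the most negative of the family, had a 95% interval from -1.08 to 0.21.

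The sensors of foreign compounds pointed in opposite directions without passing, where 2.6% of all genes passed. Nr1i2, which encodes PXR, had log2 signals of 8.92, 9.0 and 9.13 at the lowest, median and highest in PSC livers, against 8.65, 8.84 and 9.04 in control livers. All 6 PSC livers lay above the control median and 1 above every control liver. The log2 difference was 0.16 (SE 0.07, limma adjusted p = 0.202). Nr1i3, which encodes CAR, had -0.27 (95% interval -0.59 to 0.06), with PSC replicates 2 and 5 at 5.69 and 5.5, below every control liver. The changes of Nr1i2 and Nr1i3 differed by 0.43 (exact permutation p = 0.0584, 0.241 after adjustment over the 26 pairs).

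None of the receptors of hepatocyte identity passed, where 2.6% of all genes did. Hnf4a, which maintains much of the hepatocyte programme, averaged 9.70 ± 0.10 in PSC livers and 9.72 ± 0.09 in control livers (SD, n = 6 each), a log2 difference of -0.02 (95% interval -0.15 to 0.11). Nr5a2, a regulator of bile acid synthesis genes, had -0.02 (-0.12 to 0.08). Hnf4g, the gamma relative of Hnf4a, had 0.11 (-0.16 to 0.38), with 3 PSC livers above and 1 below every control liver.

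Metabolic sensors and steroid receptors had similar medians, and their ranges rest on unequal numbers of genes (12 and 5), where more genes tend to give a wider range. Of 12 sensors 1 passed (Ppara), 3 had an unadjusted p below 0.05, and the log2 differences ran from -0.43 to 0.41 with a median of 0.028. Of 5 steroid receptors 0 passed (limma, 0 with an unadjusted p below 0.05), and the differences ran from -0.05 to 0.12 with a median of 0.035. With the retinoid X receptors and Vdr counted as sensors, 2 of 16 passed and the median was 0.052. Of all genes 2.6% passed and 19.1% had an unadjusted p below 0.05 (limma). Among the steroid receptors Esr2 and Pgr were dim, with mean log2 signals of 4.08 and 3.03, while the dimmest sensor was Pparg at 5.64. The classes were not tested against each other.

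**Figure D2:**
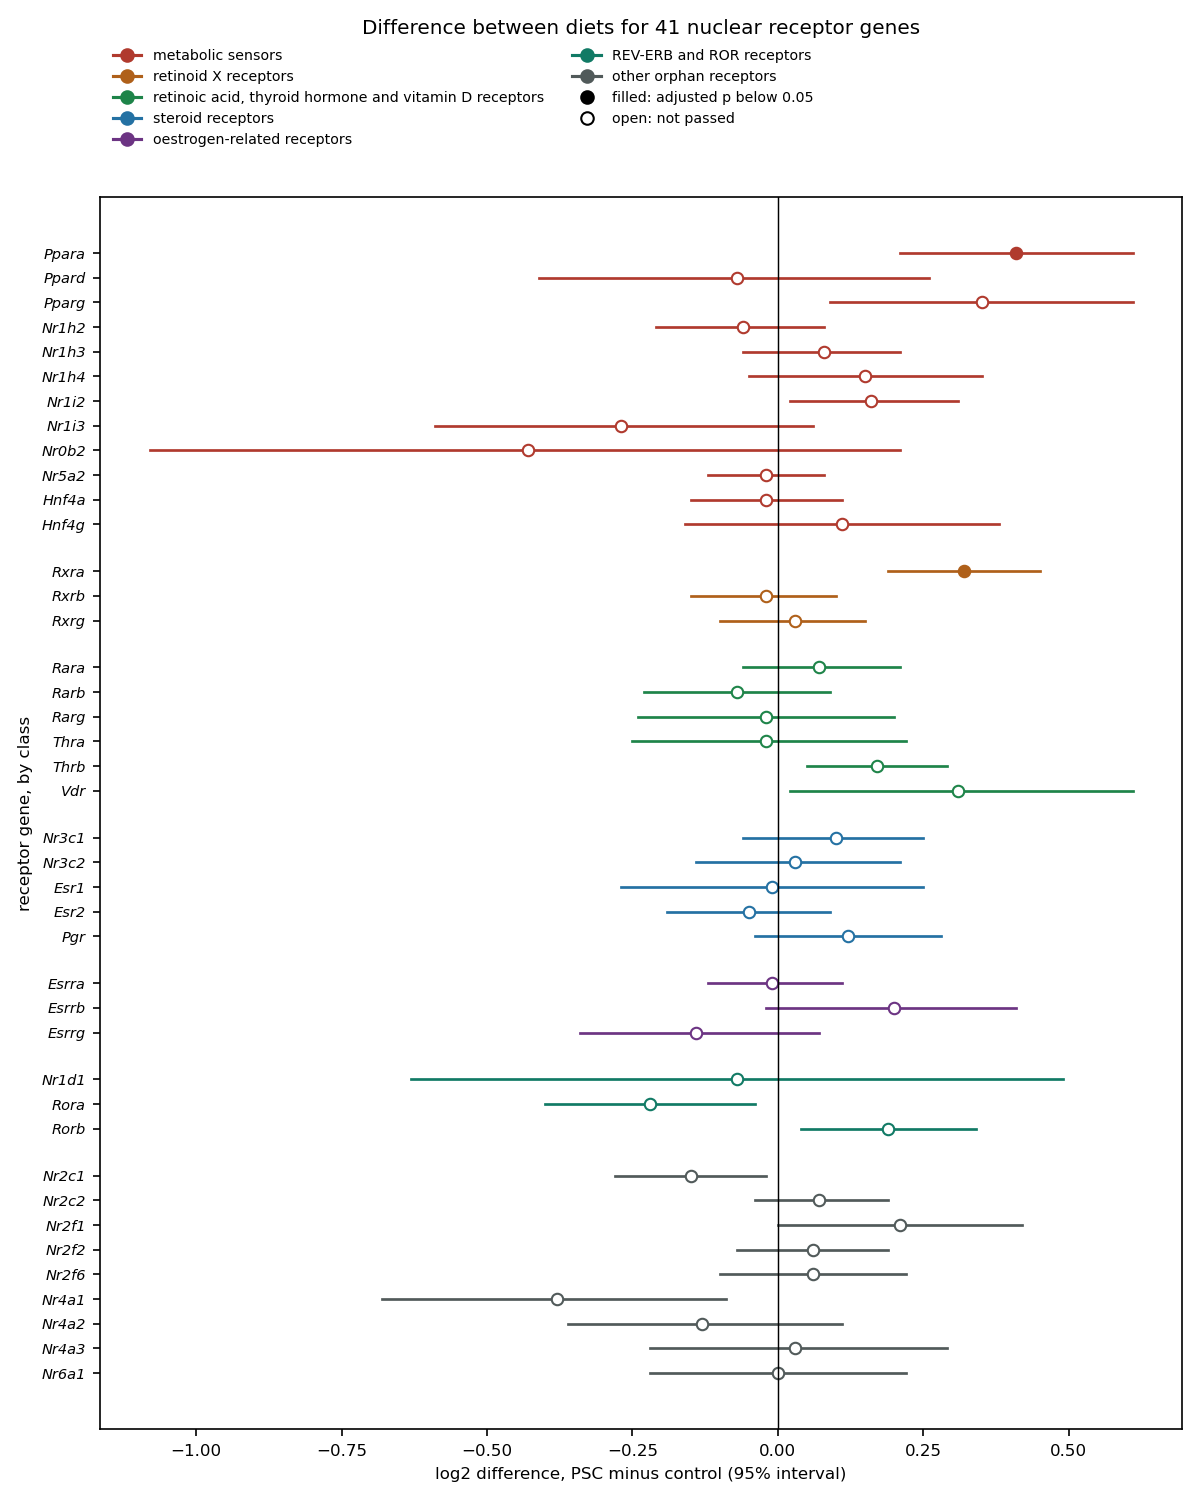
Log2 difference, PSC minus control, on the horizontal axis with its 95% interval for the 41 nuclear receptor genes by class, with filled points at an adjusted p below 0.05. Ppara at 0.41 and Rxra at 0.32 are filled, and the 5 steroid receptors lie between -0.05 and 0.12.

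Among the steroid receptors, the glucocorticoid receptor gene Nr3c1 had log2 signals of 8.19, 8.26 and 8.6 at the lowest, median and highest in PSC livers, against 8.07, 8.22 and 8.32 in control livers. PSC replicate 3 stood alone at 8.60 and the other rats overlapped, with a log2 difference of 0.10 (95% interval -0.06 to 0.25). The mineralocorticoid receptor gene Nr3c2 had 0.03 (-0.14 to 0.21). Esr1, the main oestrogen receptor of liver, had -0.01 (-0.27 to 0.25), and Esr2, the beta form, had -0.05 (-0.19 to 0.09). Pgr, the progesterone receptor gene, had 0.12 (-0.04 to 0.28). Esr2 and Pgr are among 8 members, with Vdr, Rarg, Rorb, Esrrb, Nr2f1 and Nr4a3, whose mean signal lay under 5.33, the median of all genes, where RMA compresses differences.

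Of the thyroid hormone, vitamin D and retinoic acid receptors none passed (limma, 2 of 6 with an unadjusted p below 0.05). Among all genes 2.6% passed and 19.1% had such a p. Thrb, the thyroid hormone receptor that prevails in liver, had log2 signals of 7.53, 7.64 and 7.73 at the lowest, median and highest in PSC livers, against 7.38, 7.44 and 7.59 in control livers. All 6 PSC livers lay above the control median and 4 above every control liver, with a log2 difference of 0.17 (SE 0.06, limma adjusted p = 0.124). Thra, the alpha form, had -0.02 (95% interval -0.25 to 0.22). Vdr, the vitamin D receptor, had 4, 4.12 and 4.63 in PSC livers, against 3.51, 3.93 and 4.24 in control livers. Only PSC replicates 2 and 5 exceeded the highest control liver, and the log2 difference was 0.31 (SE 0.14, limma adjusted p = 0.226). The retinoic acid receptor genes Rara, Rarb and Rarg had 0.07, -0.07 and -0.02.

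Of the receptors tied to the circadian clock, Rora, an activator of clock genes, had log2 signals of 7.96, 8.04 and 8.41 at the lowest, median and highest in PSC livers, against 8.12, 8.30 and 8.52 in control livers. All PSC livers but replicate 1, at 8.41, lay below every control liver. The log2 difference was -0.22 (SE 0.08, 95% interval -0.40 to -0.04, limma adjusted p = 0.17). Rorb, the beta form, had 3.95, 4.01 and 4.21 in PSC livers, against 3.7, 3.84 and 4.01 in control livers. All 6 PSC livers lay above the control median and 3 above every control liver, with a log2 difference of 0.19 (SE 0.07, limma adjusted p = 0.151). The changes of Rora and Rorb differed by -0.41 (exact permutation p = 0.00866, 0.075 after adjustment over the 26 pairs). Nr1d1, the clock repressor REV-ERB alpha, had 7.9, 9.18 and 9.53 in PSC livers, against 8.4, 9.09 and 9.53 in control livers. Its lowest rat was replicate 1 in both diets, and the log2 difference was -0.07 (95% interval -0.63 to 0.49). The labels and files used here do not record the hour at which each rat was killed.

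Among the orphan receptors Nr4a1, an immediate early gene induced by hormones and stress, had log2 signals of 5.16, 5.38 and 5.56 at the lowest, median and highest in PSC livers, against 5.29, 5.67 and 6.26 in control livers. No PSC liver exceeded the control median, and control replicates 1 and 4 stood high at 6.26 and 6.14. The log2 difference was -0.38 (SE 0.14, 95% interval -0.68 to -0.09, limma adjusted p = 0.151). Its relatives Nr4a2 and Nr4a3 had -0.13 and 0.03. Nr2c1, testicular receptor 2, had 7.05, 7.24 and 7.35 in PSC livers, against 7.26, 7.35 and 7.47 in control livers. No PSC liver exceeded the control median and 3 lay below every control liver, with a log2 difference of -0.15 (SE 0.06, limma adjusted p = 0.214).

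None of the remaining members passed, where 2.6% of all genes did. Nr2f1, Nr2f2 and Nr2f6, of the COUP transcription factors, had log2 differences of 0.21, 0.06 and 0.06, and Nr2c2, a relative of Nr2c1, had 0.07. The oestrogen-related receptors, which drive mitochondrial genes together with the coactivator encoded by Ppargc1a, had -0.01 (Esrra), 0.20 (Esrrb) and -0.14 (Esrrg). Nr6a1, the germ cell nuclear factor, had 0.00 (95% interval -0.22 to 0.22). Of the family genes not on the list, Nr0b1 and Nr5a1 were measured and had 0.35 (limma adjusted p = 0.113) and 0.08. Both lay under 5.33, the median of all genes, with mean signals of 2.80 and 5.04.

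Members varied between rats about as much as genes in general. Their median SD was 0.149 in PSC livers and 0.134 in control livers, where all genes had 0.146 and 0.125. Nr0b2 was the most variable, with 0.71 in PSC livers and 0.54 in control livers, followed by Nr1d1 with 0.65 in PSC livers and 0.40 in control livers. Nr4a1 had 0.13 in PSC livers and 0.37 in control livers. The SD was larger in PSC livers for 25 of the 41 members, and no test of spread was made.

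**Figure D3:**
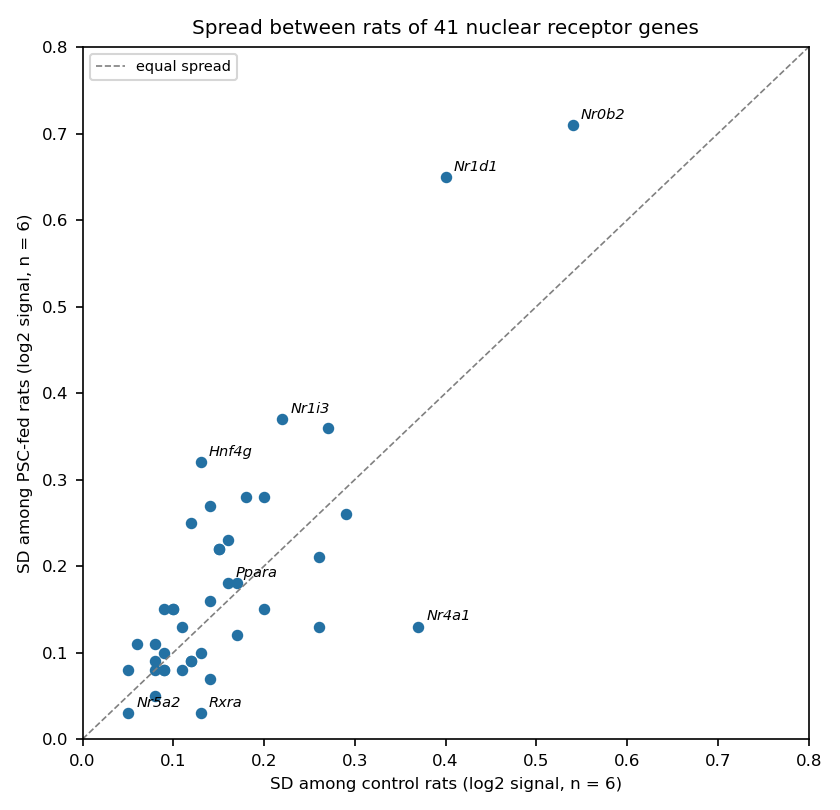
SD of the log2 signal among the 6 PSC livers (vertical axis) against that among the 6 control livers (horizontal axis), with 1 point per nuclear receptor gene and a dashed line at equal spread. Nr0b2 and Nr1d1 lie farthest out, at 0.71 and 0.65 on the PSC axis, and Nr4a1 and Rxra lie below the line.

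Of 17 measured coactivators and corepressors 1 fell and 0 rose (median log2 difference -0.03), where 1.89% of all genes fell and 0.716% rose. The one that fell was Ppargc1a, whose product PGC-1 alpha joins PPAR alpha and the oestrogen-related receptors on genes of fat oxidation. It had log2 signals of 4.83, 5.08 and 5.33 at the lowest, median and highest in PSC livers, against 5.31, 5.53 and 5.79 in control livers. The mean of Ppargc1a over all arrays, 5.32, lay just under the median of all genes, which was 5.33. All but 1 of the PSC livers lay below every control liver, and the log2 difference was -0.48 (SE 0.10, limma adjusted p = 0.0247), opposite in sign to those of Ppara and Rxra. It passed in 7 of 12 fits without 1 array, and the limma adjusted p was 0.056, 0.0517, 0.0519 and 0.0535 without control replicates 1, 3, 4 and 6 and 0.0573 without PSC replicate 5. Of 7 measured chaperones of steroid receptors 0 passed (limma, 1 with an unadjusted p below 0.05), with Dnajb1 at -0.23 and Hsp90ab1 at -0.12.

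Genes listed as PPAR alpha targets passed in both directions. Of 28 measured, 1 rose and 3 fell, where 0.716% of all genes rose and 1.89% fell. In this list 10 differences were above 0 and 18 below, and the median was -0.05. Cpt1a, which commits fatty acids to mitochondrial oxidation, had log2 signals of 9.86, 10.23 and 10.44 at the lowest, median and highest in PSC livers, against 8.41, 9.57 and 9.76 in control livers. Every PSC liver lay above every control liver, and the log2 difference was 0.81 (SE 0.19, limma adjusted p = 0.0374). It passed in 4 of 12 fits without 1 array. The limma adjusted p was 0.0847, 0.0619 and 0.0554 without control replicates 1, 3 and 4, and 0.0605, 0.0614, 0.0586, 0.0777 and 0.0832 without PSC replicates 1, 2, 3, 5 and 6. It also missed with all transcript clusters (0.0647), a variance trend with robust moderation (0.0573) and array weights (0.053). With the replicate number as a block its limma adjusted p was 0.0837.

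The listed PPAR alpha targets that fell were Cidea, a lipid droplet protein gene, Acot1, an acyl-CoA thioesterase gene, and Vnn1, which encodes the pantetheinase vanin. Cidea had log2 signals of 7.42, 8.22 and 8.82 at the lowest, median and highest in PSC livers, against 9.11, 9.31 and 9.6 in control livers. Vnn1 had 7.09, 7.51 and 7.66 in PSC livers, against 7.99, 8.13 and 8.27 in control livers. In both, as in Acot1, every PSC liver lay below every control liver. Acot1 was dim, with means of 3.25 in PSC livers and 4.24 in control livers, under 5.33, the median of all genes. The log2 differences were -1.07 for Cidea (SE 0.19, limma adjusted p = 0.0109), -0.99 for Acot1 (SE 0.19, 0.0189) and -0.72 for Vnn1 (SE 0.10, 0.0041), and all 3 passed in all 12 fits without 1 array.

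**Figure D4:**
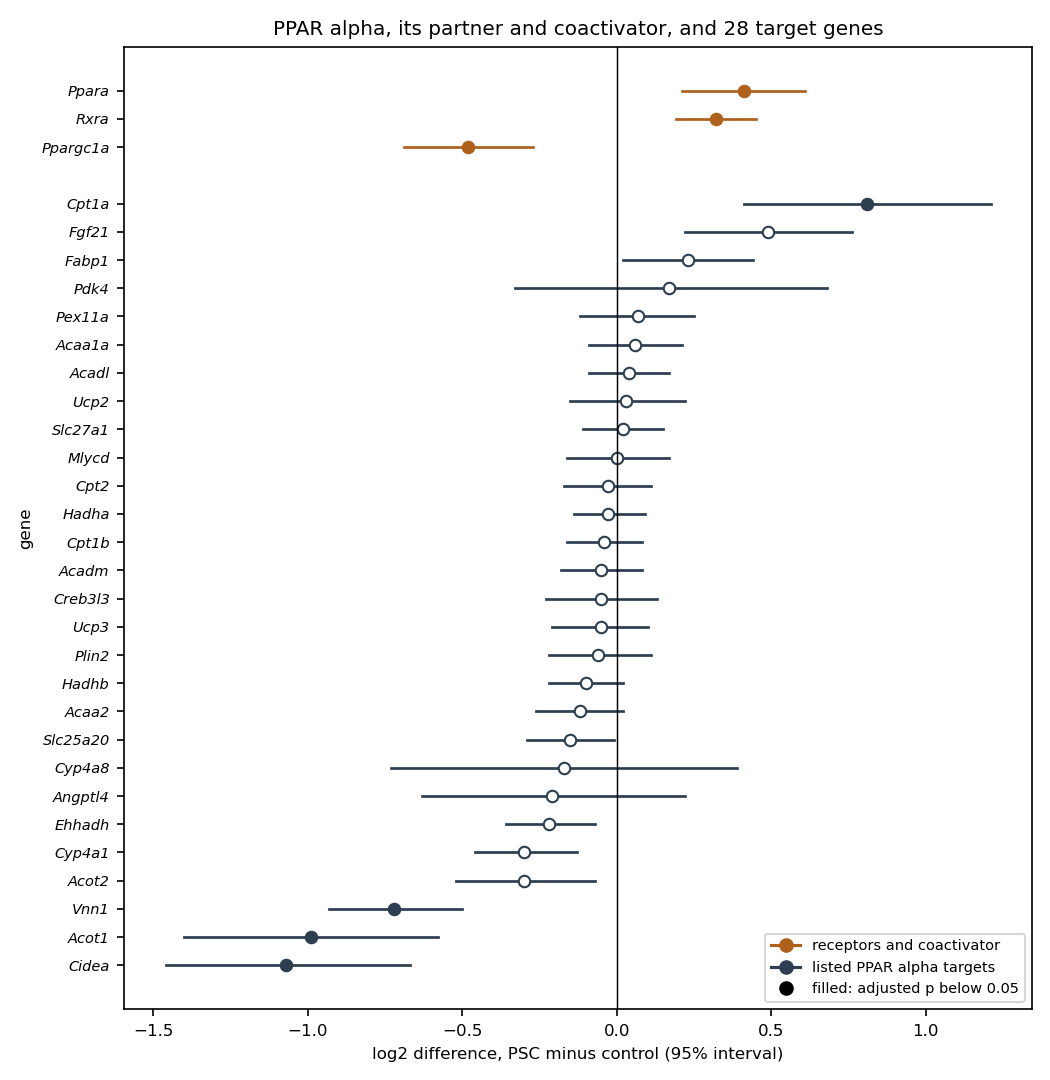
Log2 difference, PSC minus control, on the horizontal axis with its 95% interval for Ppara, Rxra and the coactivator Ppargc1a (brown) and 28 listed PPAR alpha targets (dark blue), with filled points at an adjusted p below 0.05. Ppara and Rxra lie above 0 and Ppargc1a below, and the filled targets are Cpt1a at 0.81 and Vnn1, Acot1 and Cidea at -0.72 to -1.07.

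Targets of the sterol sensors are given beside all genes, of which 0.716% rose, 1.89% fell and 19.1% had an unadjusted p below 0.05 (limma). Of 15 measured LXR targets 1 rose and 1 fell. Srebf1, the lipogenic transcription factor, had log2 signals of 9.8, 10.04 and 10.23 at the lowest, median and highest in PSC livers, against 8.66, 9.37 and 9.71 in control livers. The diets did not overlap, and the log2 difference was 0.72 (SE 0.14, limma adjusted p = 0.0228). It missed without control replicates 1 and 4 (limma adjusted p = 0.0625 and 0.0515) and PSC replicates 1 and 6 (0.0503 and 0.0542). Srebf1 also missed with the replicate number as a block (0.0566). Lpl, lipoprotein lipase, differed by -0.66 (limma adjusted p = 0.013) and passed in all 12 fits without 1 array. Its mean signal of 5.29 lay just under 5.33, the median of all genes. Of 16 measured FXR targets 0 passed (limma, 5 with an unadjusted p below 0.05: 4 higher and 1 lower), with Abcb4, the bile phospholipid transporter gene, at -0.88 (adjusted p = 0.0593) and Slc10a1, the bile acid uptake gene, at 0.23 (0.0607). This list, which includes the members Nr0b2 and Ppard, does not separate genes that FXR induces from genes it represses. Its counts of higher and lower genes therefore give no direction for the receptor, and the other target lists are not separated either. Abcb4 passed with median centring and without dim genes (limma adjusted p = 0.0359 in both) and without PSC replicate 4 (-1.08, 0.00576). Slc10a1 passed without dim genes (0.0253), with a variance trend and robust moderation (0.0236), with array weights (0.038), without PSC replicate 2 (0.0394) and without PSC replicates 2 and 5 together (0.0495).

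Among the target lists, that of PXR and CAR held the largest differences, where those of the family ran from -0.43 to 0.41. Of 26 measured, 2 rose and 5 fell, where 0.716% of all genes rose and 1.89% fell. The median log2 difference of the list was -0.11. Sult2a1, a steroid and bile acid sulfotransferase, had log2 signals of 6.14, 6.84 and 7.68 at the lowest, median and highest in PSC livers, against 3.74, 4.42 and 5.58 in control livers, a log2 difference of 2.32. The cytochrome P450 gene Cyp2c55 had 5.81, 7.22 and 9.39 in PSC livers, against 9.66, 9.94 and 10.2 in control livers, a log2 difference of -2.49. The diets did not overlap for either gene. The transporter gene Abcb1b and the glutathione transferase gene Gstm3 differed by -1.94 and -1.56, and these 4 genes passed in all 12 fits without 1 array. Ces2c (-0.99), Cyp3a18 (-1.12) and Ugt2b1 (0.88), enzymes of drug metabolism, passed in 11, 4 and 8 of them, with a limma adjusted p of up to 0.05, 0.105 and 0.0625. Cyp3a18 also missed with quantile normalization once more (limma adjusted p = 0.0528), cyclic loess (0.054), all transcript clusters (0.0725) and a variance trend with robust moderation (0.0822). With the replicate number as a block it missed too (limma adjusted p = 0.124), as did Ces2c (0.0569) and Ugt2b1 (0.0569).

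Targets and ligand genes of the hormone receptors are given by their counts. Beside them, 0.716% of all genes rose, 1.89% fell and 19.1% had an unadjusted p below 0.05 (limma). Of 29 measured enzymes and carriers of receptor ligands 1 rose (Sult2a1) and 2 fell, the fatty acid carrier gene Fabp4 (-1.50, limma adjusted p = 0.00514) and Serpina7 (-1.41, 0.0332), which encodes thyroxine-binding globulin. Of 20 glucocorticoid receptor targets 1 fell, Cdkn1a, which encodes the cell cycle inhibitor p21 (-0.94, 0.0206). Of 11 thyroid hormone receptor targets 3 fell, Bcl3 (-0.72, 0.0228) with Serpina7 and Ppargc1a, and 0 rose, with 8 differences below 0 and a median of -0.22, the farthest from 0 of the receptor target lists. Of 8 retinoic acid receptor targets 0 passed (limma, 3 with an unadjusted p below 0.05), with Cyp26b1 at 0.26 and Stra6 at 0.18. Of 18 HNF4A targets 1 rose, the apolipoprotein gene Apoa4 (0.53, 0.035), and of 12 REV-ERB and ROR targets 0 passed (limma, 1 with an unadjusted p below 0.05), with Bhlhe41 at -0.17 and Npas2 at -0.23. Fabp4 passed in all 12 fits without 1 array, Cdkn1a in 11, Bcl3 in 8, Serpina7 in 5 and Apoa4 in 4, with limma adjusted p values of up to 0.0196, 0.056, 0.0625, 0.0806 and 0.0825. With all transcript clusters Serpina7 (limma adjusted p = 0.0579) and Apoa4 (0.0613) missed. Serpina7 also missed with a variance trend and robust moderation (0.0597) and with the replicate number as a block (0.0521). Under that block Apoa4 (limma adjusted p = 0.0889), Cdkn1a (0.0558) and Bcl3 (0.0598) missed too.

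Markers of other liver cells moved beside these results, and in a bulk sample fewer cells of a type and less RNA per cell cannot be told apart. Among all genes 0.716% rose, 1.89% fell and 19.1% had an unadjusted p below 0.05 (limma). Of 12 measured stellate cell and fibroblast markers 4 fell (Dcn, Col1a2, Rgs5 and Col3a1) and 0 rose, with a mean log2 signal over the list of 6.44 to 6.81 in PSC livers and 6.77 to 7.04 in control livers. Of 12 Kupffer cell and macrophage markers 1 rose (Cd163, 0.87), with list means of 7.12 to 7.50 in PSC livers and 6.34 to 7.25 in control livers. Of the lymphocyte markers 1 of 10 rose (Nkg7, 0.51), with list means of 4.66 to 4.90 in PSC livers and 4.51 to 4.70 in control livers. Of the bile duct markers 1 of 7 fell (Spp1, -0.63), at 4.40 to 4.56 in PSC livers and 4.52 to 4.59 in control livers. The bile duct markers did not move as a set, with 4 differences above 0, 3 below and a median of 0.04. Spp1 and Nkg7 had mean signals of 5.26 and 4.89, under 5.33, the median of all genes. Of 11 hepatocyte, 7 endothelial, 7 adipose and muscle and 8 pancreas markers 0 passed (limma, with 0, 3, 2 and 1 at an unadjusted p below 0.05). Dcn and Col1a2 passed in all 12 fits without 1 array, Spp1 and Nkg7 in 8, Cd163 in 4, Rgs5 in 3 and Col3a1 in 2, with a limma adjusted p of up to 0.0404, 0.0432, 0.0626, 0.0699, 0.0884, 0.0765 and 0.102 in that order of genes. With all transcript clusters Spp1 (limma adjusted p = 0.0512), Cd163 (0.0726), Rgs5 (0.0559) and Col3a1 (0.0811) missed. Cd163 also missed with a variance trend and robust moderation (0.0629). Col3a1 also missed with quantile normalization once more (0.0547), cyclic loess (0.0651) and array weights (0.053). With the replicate number as a block Cd163 (limma adjusted p = 0.0988), Col3a1 (0.099), Rgs5 (0.0701) and Spp1 (0.0701) missed. The part of these markers in the differences of Rxra, Ppara and their targets was not tested.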

How the data were processed

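The authors deposited a log2 signal for every transcript cluster, computed by RMA in Affymetrix Expression Console according to the submitters' processing notes. The labels and files used here name no version of either. RMA corrects background, quantile normalizes and summarises probes, and no further normalization was applied. Of 30347 clusters 18511 carry 1 gene symbol in the platform annotation, and the brightest per gene gave 18166 genes. Diets were compared in all 12 arrays with limma 3.58.1 (statmod 1.5.0, R 4.3.3), two-sided, without covariates. The test was checked on simulated data. Pairs of related receptors were compared by exact permutation of within-array differences. Figures used matplotlib 3.10.9 in Python 3.11.15.

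Members and lists were chosen with earlier results of these data known. Every member may be named. Of each other list, genes with an adjusted p below 0.05 are named, or else the 2 with the smallest p, and array values are given for the passing members and the 8 next by p. Ranges of Nr0b2, Nr3c1 and Nr1d1 and of listed target genes were added after their values were seen. Alternatives covered normalization, dim genes, all clusters, the mean of a gene's clusters, the variance model, array weights, the replicate block, a threshold of 0.1 and left-out arrays. Cage could not enter the model, since the labels do not assign rats to cages.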

Additional observations from a re-analysis of the deposited data

Results flagged for a closer look

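In 8 of 170 groups of 6 rats examined, 1 rat stood apart by Dixon's test at 95%, where chance gives about 1 in 20. Among the nuclear receptor genes these were 3 of 82 groups. Rora was 8.41 in PSC replicate 1, where the next PSC rat had 8.07, and Nr3c1 was 8.60 in PSC replicate 3, where the next had 8.28. Rxrg was 7.17 in control replicate 6, where the next control rat had 7.34. Outside the family, Nr0b1 was 3.53 in PSC replicate 5, Lep was 4.05 in PSC replicate 2 and Col3a1 was 9.08 in PSC replicate 4, each high in its group. Cpt1a was 8.41 in control replicate 6 and Cd163 was 4.96 in control replicate 1, each low in its group.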

How the results depend on the processing

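The number of nuclear receptor genes that passed was 1 with all transcript clusters tested, 1 with the replicate number as a block and 1 with PSC replicates 2 and 5 left out together (added after seeing the data), and 0 to 2 with 1 array left out. With all transcript clusters tested, 254 of 30347 clusters passed, which is not a count of genes. The number over all genes was 94 under the block and 225 without PSC replicates 2 and 5. That number was 797 without dim genes, 1140 at an adjusted p below 0.1 and 142 to 735 with 1 array left out. It moved by over 1.5 times without control replicates 1 (142), 3 (252), 4 (164), 5 (298) and 6 (188), and without PSC replicates 1 (206), 4 (735), 5 (199) and 6 (160). The cause was not tested. The median log2 difference of the members was -0.018 with median centring, which set the median of all genes to -0.032, and -0.007 without dim genes, and that of the metabolic sensors was -0.017 with median centring. With 1 array left out these medians ran from 0.004 to 0.048 and from 0.005 to 0.044, and that of the steroid receptors from 0.009 to 0.072. Under the replicate block Rxra had an adjusted p of 0.0704 (limma). Abcb1b and Cyp2c55, which passed in all 12 fits without 1 array, missed under the block too (limma adjusted p = 0.0566 and 0.0504). Further target and marker genes that missed under it are given above with their values. The labels used here do not say what the replicate number stands for. Same-numbered arrays correlated at -0.15 to 0.11 in their deviations from the group means, with 1 of 6 pairs over 0.1. Correlations over all genes cannot tell whether such rats shared a cage or an hour, and this was not tested. With all clusters Ppara had an adjusted p of 0.0611 (limma). Over the alternatives of single named genes, 1695 values kept their side of the threshold, 141 lost a call, 11 gained one and none of the called genes turned its sign. Detection calls were not used here, so dim members give no statement of absence.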
